A study of Mus musculus with 50 samples.

Results

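Wnt and beta-catenin signalling genes were followed through translating mRNA and through whole tissue of the nucleus accumbens (NAc). The translating mRNA came from Cre lines that target D1- and D2-MSNs (medium spiny neurons that carry dopamine receptor D1 or D2). The genes were chosen by symbol alone. They were the Wnt ligands, the Frizzled receptors, *Lrp5*, *Lrp6*, *Dvl1* to *Dvl3*, *Axin1*, *Axin2*, *Apc*, *Apc2*, *Ctnnb1*, *Lef1*, the *Tcf7* genes and the secreted *Dkk* and *Sfrp* inhibitors. The rule took 51 of the 24552 genes in the count table. It uses no measured value, although earlier results of these data were known when it was set.

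In the canonical pathway a secreted Wnt ligand binds a Frizzled receptor together with the co-receptor LRP5 or LRP6, and Dishevelled proteins relay the signal. Without ligand, a destruction complex built on Axin and APC marks beta-catenin, the product of *Ctnnb1*, for degradation. With ligand, beta-catenin accumulates and works with TCF/LEF factors on target genes. Some DKK proteins block the co-receptor, and SFRP proteins bind Wnt ligands. In the brain the pathway is known from development and from synapse formation, and beta-catenin also joins cadherins at cell contacts.

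RiboTag (RT) mice carry an HA-tagged ribosomal protein that is made only in cells with Cre, so an HA immunoprecipitation (IP) recovers ribosomes and their mRNA from those cells, whereas input RNA from the same homogenate represents all cells of the tissue. Cre came from BAC transgenes driven by D1 or D2 receptor gene sequence (RT; D1-Cre and RT; D2-Cre), so the IPs hold whichever cells in the punches expressed that transgene. All mice were C57BL/6 and, where an age was given, 8 to 12 weeks old, and each library was made from NAc punches of 2 pooled mice. Mice were controls without social defeat (Con) or went through chronic social defeat for up to 10 days and were called susceptible (Sus) or resilient (Res) from a social interaction test. There were 13 D1-IPs (4 Con, 4 Res and 5 Sus), 15 D2-IPs (5 of each), and 18 inputs (3 of each stress group in each line). A further 4 D1-IPs came from undefeated male RT; Sirt1-floxed; D1-Cre mice and are called here the libraries labelled Sirt1-KO, for which no age was given; they were compared with the same 4 D1-IP Con libraries.

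Between 18384265 and 31009626 reads per IP or input library were counted on genes, and between 22174187 and 31785984 in the libraries labelled Sirt1-KO. The line labels were checked on the IPs, where 5 of 5 D1-MSN markers were higher and 5 of 5 D2-MSN markers lower in D1-IPs than in D2-IPs. Against inputs of their own line, D1-IPs had 3 of 5 D2-MSN markers higher and 0 lower. D2-IPs had 0 of 5 D1-MSN markers higher and 2 lower. Values of D1-IPs are therefore not those of D1-MSNs alone. Marker levels of glutamatergic neurons (7 genes, among them *Slc17a7*, *Slc17a6* and *Neurod6*), which MSNs as GABAergic cells are not known for, ran from 408 to 1443 summed CPM (read counts scaled to library size with TMM normalization) in D1-IPs, from 46.1 to 323 in D2-IPs and from 118 to 1135 in inputs. The highest of them was the library D1 Sus 3. In such bulk samples fewer cells of a type and less RNA per cell cannot be told apart.

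Promoter sequences were read for the genes whose difference between D1-IPs and D2-IPs is described first below. They are the 250 bases before a RefSeq transcript start (GRCm38.p6), from the table of RefSeq promoters, in which 35 of the 51 genes were matched by symbol and used. Shown are *Sfrp5* and *Wnt9a*, higher in D1-IPs, and *Fzd5* and *Wnt7a*, higher in D2-IPs, as the 2 with the largest difference in each direction among genes with a single listed start. A start inside *Tcf7l2* is added because that gene had the lowest p of the members in the Sirt1-KO comparison. Capitals mark a TCF/LEF motif (AACAAAG, or else ATCAAAG, or else TACAAAG, or else TTCAAAG, on either strand).

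Sfrp5, chr19:42202253-42202502, minus strand: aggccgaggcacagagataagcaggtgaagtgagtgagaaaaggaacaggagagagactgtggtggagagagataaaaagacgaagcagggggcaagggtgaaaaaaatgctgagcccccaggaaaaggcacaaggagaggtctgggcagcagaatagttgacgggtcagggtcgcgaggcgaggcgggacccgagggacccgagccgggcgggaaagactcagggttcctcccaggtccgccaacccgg

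Wnt9a, chr11:59306680-59306929, plus strand: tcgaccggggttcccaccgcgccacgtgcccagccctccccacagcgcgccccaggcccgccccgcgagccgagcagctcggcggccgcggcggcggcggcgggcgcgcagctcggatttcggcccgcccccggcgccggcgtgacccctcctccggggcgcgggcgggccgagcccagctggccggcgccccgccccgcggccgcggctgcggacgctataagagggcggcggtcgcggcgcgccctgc

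Fzd5, chr1:64737751-64738000, minus strand: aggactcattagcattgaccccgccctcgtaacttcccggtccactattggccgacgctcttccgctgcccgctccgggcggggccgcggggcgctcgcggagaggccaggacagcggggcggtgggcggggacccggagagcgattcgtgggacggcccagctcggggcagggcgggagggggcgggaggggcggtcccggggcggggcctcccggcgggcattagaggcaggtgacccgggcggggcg

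Wnt7a, chr6:91411354-91411603, minus strand: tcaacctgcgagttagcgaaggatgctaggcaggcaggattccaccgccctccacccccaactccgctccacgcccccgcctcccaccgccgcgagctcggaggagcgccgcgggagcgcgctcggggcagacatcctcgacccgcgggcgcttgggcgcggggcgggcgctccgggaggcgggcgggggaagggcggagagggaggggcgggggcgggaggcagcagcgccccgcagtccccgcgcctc

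Tcf7l2, chr19:55895071-55895320, plus strand: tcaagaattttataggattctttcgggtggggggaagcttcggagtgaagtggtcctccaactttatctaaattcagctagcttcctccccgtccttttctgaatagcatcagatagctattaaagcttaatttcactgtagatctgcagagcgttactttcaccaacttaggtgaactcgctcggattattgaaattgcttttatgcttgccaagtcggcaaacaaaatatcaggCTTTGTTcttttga

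Only the *Tcf7l2* window held a match, on the minus strand. Over the 35 genes, 7 of 47 promoters (14.9%) held a match, beside 14.8% of all 32851 RefSeq promoters. The 4 windows of the D1- and D2-differing genes had a GC content of 59.6% (*Sfrp5*), 84.4% (*Wnt9a*), 76.4% (*Fzd5*) and 77.6% (*Wnt7a*), and *Tcf7l2* of 40.8%, where all promoters had a median of 52.4%. A match of letters is a description of the window and no site of binding.

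Of the 51 genes, 41 had enough reads for a test in IPs and inputs together, 39 in the IPs alone, 40 in the inputs and 34 in the comparison with Sirt1-KO. The 12 genes not tested in the IPs were *Dkk1*, *Dkk4*, *Fzd10*, *Sfrp4*, *Wnt1*, *Wnt11*, *Wnt16*, *Wnt3a*, *Wnt6*, *Wnt8a*, *Wnt8b* and *Wnt9b*. The highest count of any of them in any of the 46 libraries lay between 1 and 25 reads, which is too few for a comparison at this depth. *Fzd10* and *Sfrp4* passed the filter only with the inputs included.

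Levels of different genes were compared as CPM per kb of annotated exon. *Ctnnb1* stood far above the other members in every sample type, at 106 ± 4.95 (SD, n = 13) in D1-IPs, 98.8 ± 8.60 (SD, n = 15) in D2-IPs and 70.0 ± 2.71 (SD, n = 18) in inputs. It held 41.9% of the summed level of all members in D1-IPs, 40.8% in D2-IPs and 28.5% in inputs. Among the scaffold genes of the destruction complex, *Apc* reached 20.1 ± 1.55 in D1-IPs and 21.3 ± 2.62 in D2-IPs. *Apc2*, its neuronal relative, reached 18.2 ± 1.29 and 18.6 ± 1.11. The ranges of *Apc* and *Apc2* overlapped in both IP types, and so did those of *Apc* and *Fzd3*. These genes share their libraries and were not tested against each other within them, so the overlap does not settle their order.

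*Fzd3*, a receptor best known for axon guidance, was the leading Frizzled gene at 21.4 ± 1.17 CPM per kb in D1-IPs and 21.6 ± 1.66 in D2-IPs. The other Frizzled genes lay at 1.26 or less in both. The co-receptor gene *Lrp6* (4.86 ± 0.300 in D1-IPs, 5.50 ± 0.608 in D2-IPs) far exceeded *Lrp5* (0.0955 ± 0.0416 and 0.0865 ± 0.0342). *Dvl1* led the Dishevelled genes at 12.1 ± 0.463 and 11.9 ± 0.666, above *Dvl3* and *Dvl2* without overlap of the libraries.

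Of the 19 ligand genes, 3 had a mean above 5 CPM per kb in D1-IPs. These were *Wnt7a* at 8.29 ± 1.24, *Wnt2* at 7.31 ± 0.990 and *Wnt7b* at 5.60 ± 2.08, and their ranges overlapped. In D2-IPs *Wnt7a* reached 13.3 ± 1.87 and *Wnt2* 9.38 ± 0.885, whereas *Wnt7b* reached 1.42 ± 0.600. *Tcf7* was the leading TCF/LEF gene in the IPs (2.20 ± 0.446 and 2.73 ± 0.299), and *Lef1* the lowest (0.0258 ± 0.0144 and 0.0339 ± 0.0156). *Dkk3*, a divergent member of the DKK family that is abundant in cortical neurons, led the secreted inhibitors in every sample type, with 15.7 ± 6.47 in D1-IPs, 7.34 ± 2.65 in D2-IPs and 24.7 ± 4.09 in inputs.

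**Figure D1:**
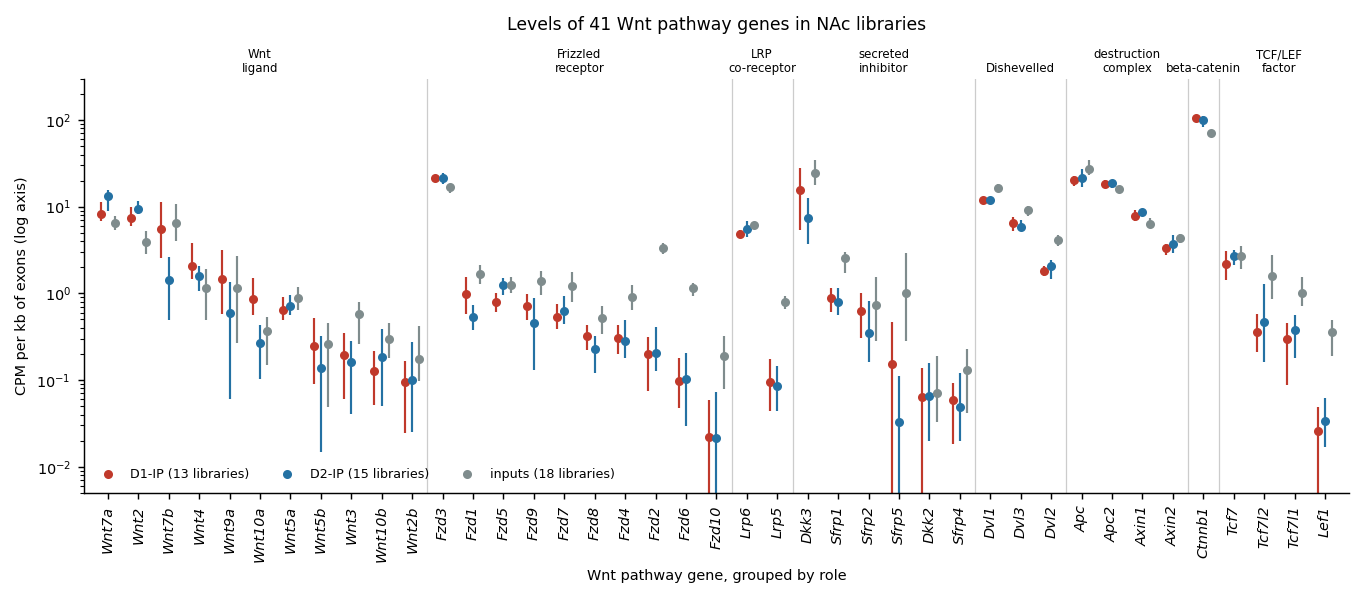
Levels of the 41 tested Wnt pathway genes in CPM per kb of exon on a log axis, grouped by role, with the mean (point) and the range from the lowest to the highest library (line, cut at the lower end of the axis where a library had 0) for 13 D1-IPs, 15 D2-IPs and 18 inputs. *Ctnnb1* lies highest in all 3 sample types, and receptors such as *Fzd2*, *Fzd6* and *Lrp5* lie far lower in both IP types than in inputs.

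The first comparison asked which of these genes differ between D1-IPs and D2-IPs, over all stress groups. Of 39 tested genes, 11 (28.2%) differed by more than 1.5-fold with edgeR's adjusted p under 0.05, against 7.66% of all 14224 genes. All 11 encode secreted proteins or receptors. The 9 higher in D1-IPs (4.94% of all genes were higher) were the ligands *Wnt7b*, *Wnt10a*, *Wnt9a* and *Wnt5b*, the receptors *Fzd1* and *Fzd9* and the inhibitors *Sfrp5*, *Dkk3* and *Sfrp2*. The 2 higher in D2-IPs (2.71% of all genes were) were *Wnt7a* and *Fzd5*. The median log2 fold change over the 39 genes was −0.04, beside −0.02 over all genes.

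*Wnt7b*, a ligand known in neurons for dendrite and axon growth, had a lowest, median and highest library of 12.7, 28.03 and 55.2 CPM in D1-IPs and of 2.43, 7.42 and 12.8 CPM in D2-IPs. The lowest D1-IP was the Con library 1, the only one below the highest D2-IP. The log2 fold change was 1.97 ± 0.21 (SE), a 3.91-fold difference (adjusted p = 9.6e-09, edgeR). Its exons overlap those of *AU022754* on the opposite strand, and since the strand setting of the counting is not given, reads of the 2 genes cannot be told apart.

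*Wnt10a* ran from 1.37 through a median of 1.91 to 3.71 CPM in D1-IPs and from 0.255 through 0.626 to 1.08 CPM in D2-IPs. Its D1-IP and D2-IP libraries did not overlap, alone among the 51 genes. How many of all genes did not overlap between the lines was not counted. Its log2 fold change was 1.68 ± 0.20 (adjusted p = 8.9e-08, edgeR).

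*Wnt9a* spread widely within both lines, from 1.95 through 4.91 to 10.6 CPM in D1-IPs and from 0.200 through 1.96 to 4.55 CPM in D2-IPs. Of the D1-IPs, 7 of 13 lay above all D2-IPs, and the log2 fold change was 1.35 ± 0.30 (adjusted p = 0.00066, edgeR). *Dkk3* likewise ran from 17.9 through 51.2 to 95.1 CPM in D1-IPs and from 12.5 through 21.7 to 42.5 CPM in D2-IPs. Of the D1-IPs, 9 of 13 lay above all D2-IPs, with a log2 fold change of 1.03 ± 0.18 (adjusted p = 4.6e-05, edgeR).

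*Fzd1* was tighter, at 2.43, 4.03 and 6.45 CPM in D1-IPs and 1.60, 2.23 and 3.09 CPM in D2-IPs. Only D1 Con 1 lay inside the D2-IP range, and the log2 fold change was 0.84 ± 0.11 (adjusted p = 7.2e-07, edgeR). The other receptor gene, *Fzd9*, had 1.14, 1.57 and 2.26 CPM in D1-IPs and 0.300, 0.941 and 2.04 CPM in D2-IPs, with wide overlap. Its log2 fold change of 0.64 ± 0.18 (adjusted p = 0.0053, edgeR) was no longer called without D1 Res 1, D2 Res 2 or D2 Sus 5.

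*Sfrp5*, which encodes a secreted inhibitor, was counted from few reads, with 0.000, 0.232 and 0.879 CPM in D1-IPs and 0.000, 0.0417 and 0.212 CPM in D2-IPs. The libraries overlapped at the low end, and the highest counts were 23 reads in a D1-IP and 5 in a D2-IP. The log2 fold change of 1.97 ± 0.54 (adjusted p = 0.0044, edgeR) was no longer called without D1 Sus 1 or without D1 Sus 2. *Sfrp2* ran from 0.661 through 1.17 to 2.18 CPM in D1-IPs and from 0.352 through 0.708 to 1.77 CPM in D2-IPs (log2 fold change 0.81 ± 0.21, adjusted p = 0.0032, edgeR), and overlapped widely. *Wnt5b* had 0.242, 0.562 and 1.39 CPM in D1-IPs and 0.0391, 0.392 and 0.863 CPM in D2-IPs. Only 2 D1-IPs lay above all D2-IPs (log2 fold change 0.87 ± 0.26, adjusted p = 0.0096, edgeR). In control libraries alone *Sfrp5*, *Sfrp2*, *Wnt5b* and *Fzd9* were not called.

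The 2 genes higher in D2-IPs, and *Fzd9*, fall outside the 8 largest log2 fold changes and are given to complete the 11. *Wnt7a*, a ligand linked to presynaptic assembly, had 21.9, 24.8 and 35.7 CPM in D1-IPs and 28.6, 43.3 and 49.4 CPM in D2-IPs. All but 2 D1-IPs lay below the lowest D2-IP, which was the Res library 5, and the log2 fold change was −0.69 ± 0.07 (adjusted p = 3.8e-09, edgeR). The receptor gene *Fzd5* had 4.18, 5.27 and 6.96 CPM in D1-IPs and 6.66, 8.61 and 10.3 CPM in D2-IPs. Only the D1 Sus 3 and D2 Con 1 libraries crossed, and the log2 fold change was −0.70 ± 0.08 (adjusted p = 1.4e-08, edgeR).

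At the fold limit, no gene that acts inside the cell was called between the lines. None of the 3 Dishevelled, 4 destruction complex and 4 TCF/LEF genes, nor *Ctnnb1*, differed by more than 1.5-fold. *Ctnnb1* had a log2 fold change of 0.09 with a 95% interval from 0.01 to 0.18, and *Dvl1* of 0.00 with an interval from −0.06 to 0.06. At an adjusted p under 0.05 and any fold, 20 of 39 genes were called, against 40.8% of all genes. Of these, 12 were higher (19.6% of all genes were) and 8 lower in D1-IPs (21.3%). Among them *Wnt2* was lower in D1-IPs by a log2 fold change of −0.36 ± 0.05, *Tcf7* by −0.32 ± 0.09, *Dvl2* by −0.22 ± 0.06, *Lrp6* by −0.19 ± 0.05, *Axin2* by −0.18 ± 0.07 and *Axin1* by −0.16 ± 0.04. *Wnt4* was higher by 0.39 ± 0.13.

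**Figure D2:**
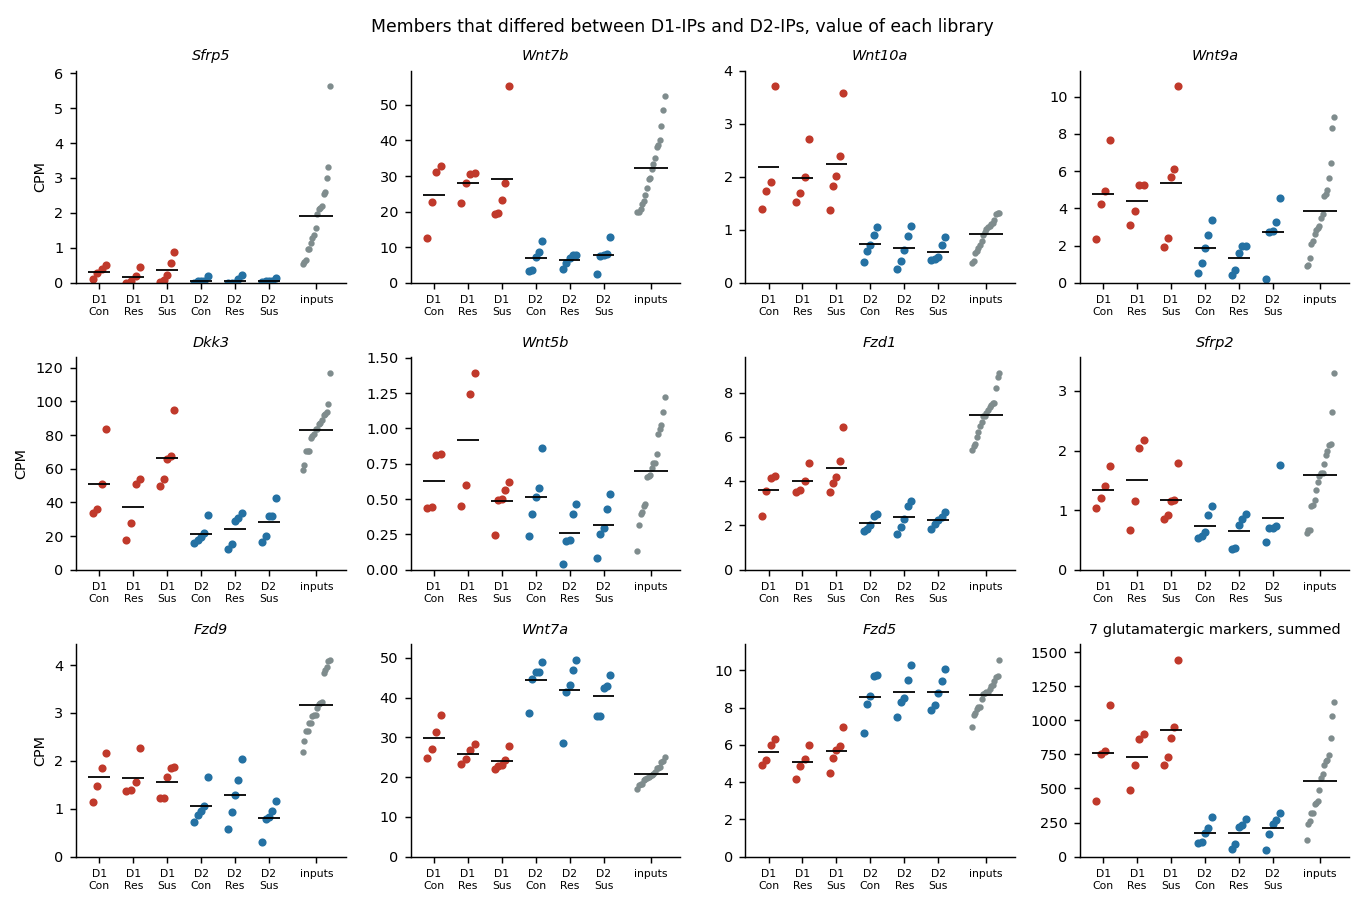
CPM of the 11 genes that differed between D1-IPs and D2-IPs, and the summed CPM of 7 glutamatergic markers, by line and stress group, with 18 inputs for comparison. Each point is 1 library, ordered by value within its group, and the bar is the group mean. Of the genes shown, *Wnt10a* alone has no overlap between lines, and the marker sum also separates the lines.

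The lines also differed in markers of other cells. Of the 7 glutamatergic markers, 6 were higher in D1-IPs and none lower, and no marker was at 0 in all libraries of a line. Their summed medians were 773 CPM in D1-IPs, 207 in D2-IPs and 532 in inputs. Of 5 cholinergic interneuron markers, 3 were lower in D1-IPs, where the sum ran from 8.91 to 32.7 CPM against 57.8 to 124 in D2-IPs. Since both sums separate the lines without overlap, line and marker level cannot be told apart in this comparison.

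The marker level could be followed within a line. For each gene, log2 of CPM plus 0.5 was correlated across libraries with log2 of the summed glutamatergic CPM, separately in D1-IPs, D2-IPs and inputs (118 relations, p adjusted over all by Benjamini-Hochberg, 100000 permutations). In D1-IPs 6 of 39 genes were positively and 2 negatively related at an adjusted p under 0.05, in D2-IPs 5 and 3 of 39, and in inputs 7 and 2 of 40. The genes related in the same direction in all 3 sets were *Wnt7b*, *Wnt9a*, *Wnt4* and *Dkk3*. Such relations were not computed over all genes, so these counts have no background share and show no trait of the pathway genes.

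For *Wnt9a*, Pearson's r was 0.85 in D1-IPs, 0.91 in D2-IPs and 0.91 in inputs (permutation p = 0.00021, 1e-05 and 1e-05; adjusted p = 0.0019, 0.00017 and 0.00017), where 1e-05 is the smallest p these permutations can give. Spearman's rho was 0.95, 0.76 and 0.94 (permutation p = 1e-05, 0.0014 and 1e-05; adjusted p = 0.00020, 0.012 and 0.00020). Without the 2 libraries farthest from the median marker level, r was 0.76, 0.83 and 0.88. For *Dkk3*, r was 0.82, 0.88 and 0.84 (permutation p = 0.00081, 1e-05 and 1e-05; adjusted p = 0.0064, 0.00017 and 0.00017). Its rho was 0.82, 0.93 and 0.83 (permutation p = 0.00076, 1e-05 and 3e-05; adjusted p = 0.0069, 0.00020 and 0.00044), and without the 2 farthest libraries r was 0.89, 0.90 and 0.84.

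For *Wnt7b*, r was 0.84, 0.90 and 0.85 (permutation p = 0.00073, 2e-05 and 1e-05; adjusted p = 0.0062, 0.00026 and 0.00017), and rho 0.71, 0.84 and 0.86 (permutation p = 0.0079, 0.00024 and 1e-05; adjusted p = 0.054, 0.0027 and 0.00020). For *Wnt4*, r was 0.77, 0.76 and 0.91 (permutation p = 0.0021, 0.0011 and 1e-05; adjusted p = 0.013, 0.0080 and 0.00017), and rho 0.65, 0.75 and 0.91 (permutation p = 0.018, 0.0018 and 1e-05; adjusted p = 0.098, 0.014 and 0.00020). In D1-IPs neither rho passed the adjusted threshold, and r was 0.51 for both *Wnt7b* and *Wnt4* without the 2 farthest libraries, so there the relation rests in part on those libraries. In D2-IPs r without the 2 farthest was 0.86 for *Wnt7b* and 0.65 for *Wnt4*, and in inputs 0.85 and 0.86. Of the genes higher in D1-IPs, *Wnt10a* followed the markers in D1-IPs (r = 0.86, rho = 0.91, permutation p = 9e-05 and 6e-05; adjusted p = 0.00089 and 0.00079) and in inputs (r = 0.79, rho = 0.74, permutation p = 8e-05 and 0.00065; adjusted p = 0.00086 and 0.0064). Without the 2 farthest libraries r was 0.81 and 0.69. In D2-IPs *Wnt10a* was not called (r = 0.40, rho = 0.43, permutation p = 0.14 and 0.11; adjusted p = 0.30 and 0.28). Within stress groups the correlation of the residuals stayed between 0.79 and 0.94 for the 4 genes in the 3 sets.

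Negative relations were also seen. In inputs *Sfrp5* was lower where the markers were higher (r = −0.89, rho = −0.84, permutation p = 2e-05 and 3e-05; adjusted p = 0.00026 and 0.00044; r = −0.89 without the 2 farthest libraries), and so was *Tcf7l2* (r = −0.81, rho = −0.78, permutation p = 3e-05 and 0.00025; adjusted p = 0.00035 and 0.0027; r = −0.84 without the 2 farthest). In D2-IPs r was −0.72 for *Tcf7l2* (rho = −0.66, permutation p = 0.0021 and 0.0091; adjusted p = 0.013 and 0.054) and −0.73 for *Sfrp2* (rho = −0.58, permutation p = 0.0018 and 0.026; adjusted p = 0.013 and 0.11). In D1-IPs r was −0.70 for *Axin1* (rho = −0.63, permutation p = 0.0081 and 0.025; adjusted p = 0.040 and 0.11) and −0.78 for *Wnt2* (rho = −0.57, permutation p = 0.0025 and 0.048; adjusted p = 0.014 and 0.17). The last 4 rest in part on the extremes, since r without the 2 farthest libraries was −0.45, −0.57, −0.43 and −0.40 in the same order.

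**Figure D3:**
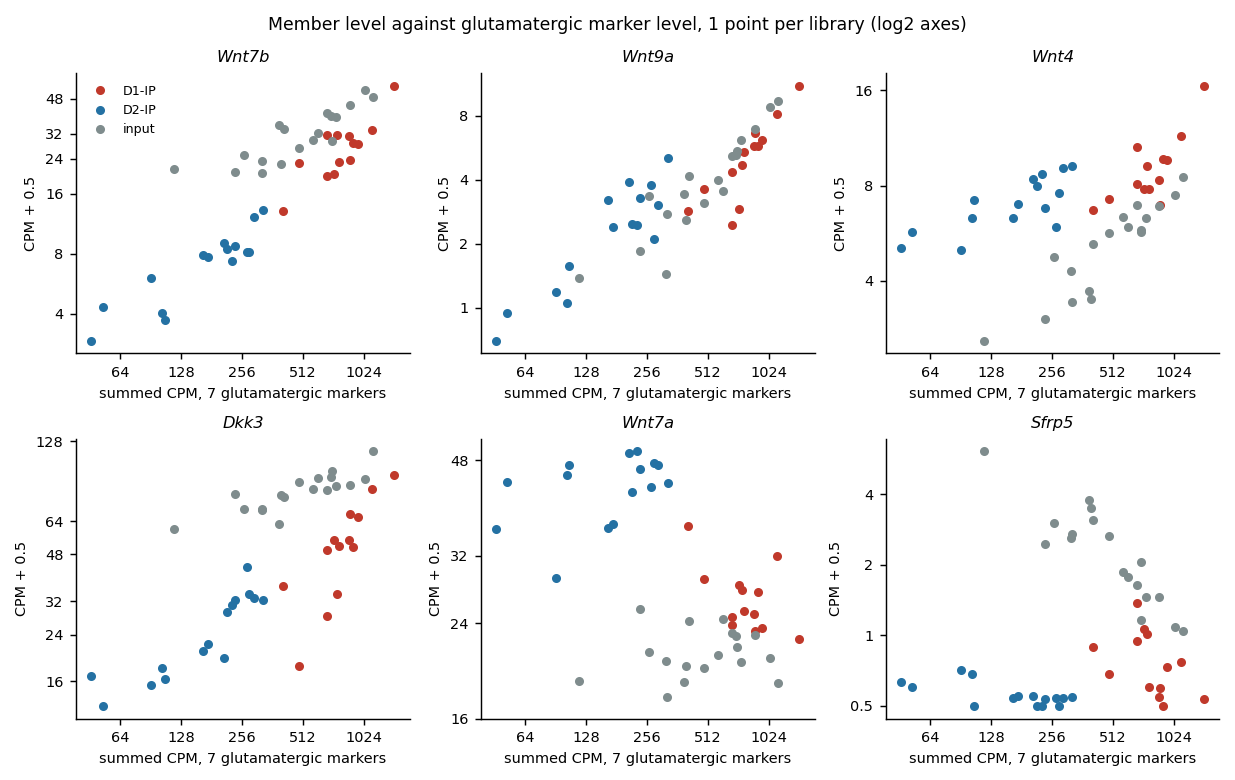
Level of 6 genes (CPM + 0.5, log2 axis) against the summed CPM of 7 glutamatergic markers (log2 axis), 1 point per library, coloured by D1-IP, D2-IP and input. *Wnt7b*, *Wnt9a*, *Wnt4* and *Dkk3* rise with the markers within each of the 3 sets, *Sfrp5* falls in inputs, and *Wnt7a* lies higher in D2-IPs than in most D1-IPs.

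The log2 marker sum was then added to the model as a covariate, an alternative chosen after seeing the data. It rests on 1 slope for both lines and extends it across levels the lines do not share. With it, 8 of 39 genes were called (5.69% of all genes), 5 of them shared with the 11 above. *Wnt7a* (−0.80), *Fzd5* (−0.93), *Sfrp2* (2.02) and *Sfrp5* (5.01) kept their call and direction. *Wnt9a* turned to −1.35 (adjusted p = 0.0020, edgeR) and *Dkk3* to −0.35 (adjusted p = 0.26, edgeR), while *Wnt7b* (0.27), *Wnt10a* (0.65), *Fzd1* (0.57), *Fzd9* (0.58) and *Wnt5b* (1.21) were no longer called. *Fzd8* (0.80), *Tcf7l2* (0.98, from −0.39 without the covariate) and *Wnt10b* (−1.68) were called in addition. *Wnt4*, under the fold limit before, turned from 0.39 to −0.40 (adjusted p = 0.13, edgeR). The direction given above for *Wnt9a*, *Dkk3* and *Wnt4* therefore depended on whether the marker level was in the model.

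The second comparison asked which genes are enriched or depleted in the ribosome IPs relative to the whole tissue. Most receptor genes were lower in the IPs of both lines. Of 11 tested ligand genes, 3 were higher and 2 lower in D1-IPs, whereas 2 were higher and 7 lower in D2-IPs, and *Ctnnb1* was called higher in D1-IPs alone, which is no test of a difference between the lines. In D1-IPs 4 of 41 genes were higher and 20 lower than in D1-inputs (24 in all, against 43.1% of 15404 genes, with 13.8% higher and 29.3% lower). In D2-IPs 2 were higher and 26 lower than in D2-inputs (28 in all, against 43.6% of genes, with 12.8% higher and 30.8% lower). The median log2 fold change of the 41 genes was −0.65 in D1 and −1.02 in D2, beside −0.04 and −0.08 over all genes.

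By role, 9 of 10 Frizzled genes were lower in D1-IPs and 8 of 10 in D2-IPs. *Fzd2* had a lowest, median and highest library of 0.271, 0.678 and 1.15 CPM in D1-IPs and of 10.8, 11.9 and 13.8 CPM in D1-inputs, without overlap (log2 fold change −4.09 ± 0.15, adjusted p = 9.0e-26, edgeR). In the D2 line its log2 fold change was −4.06 ± 0.14 (adjusted p = 1.5e-26, edgeR). *Fzd6* was lower by −3.54 ± 0.22 and −3.46 ± 0.21, and *Fzd10* by −3.25 ± 0.39 and −2.96 ± 0.38. *Fzd3*, the leading receptor gene, had log2 fold changes of 0.37 ± 0.05 in D1 and 0.36 ± 0.04 in D2, under the fold limit. *Fzd5* was lower in D1-IPs (−0.72 ± 0.08) and stood at 0.05 ± 0.08 in D2-IPs.

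The co-receptors parted in the same way. *Lrp5* was lower by a log2 fold change of −3.10 ± 0.17 in D1 and −3.26 ± 0.16 in D2, from 6.41 to 9.14 CPM in inputs to 0.428 to 1.69 CPM in IPs. *Lrp6* changed by −0.33 ± 0.05 and −0.15 ± 0.05. Of the TCF/LEF genes 3 of 4 were lower in both lines. *Lef1* changed by −3.77 ± 0.23 and −3.42 ± 0.21, *Tcf7l2* by −2.14 ± 0.24 and −1.74 ± 0.23 and *Tcf7l1* by −1.82 ± 0.19 and −1.35 ± 0.18, whereas *Tcf7* stayed within 1.5-fold of the input.

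*Sfrp1* was lower by −1.55 ± 0.11 and −1.69 ± 0.11, and *Sfrp5* by −2.74 ± 0.43 and −4.86 ± 0.49. The D2 value of *Sfrp5* rests on at most 5 reads per D2-IP, with 4 of 15 at 0. None of the 4 destruction complex genes passed the fold limit in either line.

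The genes higher in the IPs were ligand genes and *Ctnnb1*. *Wnt2* ran from 13.3 through 16.5 to 22.4 CPM in D1-IPs and from 6.45 through 8.91 to 11.7 CPM in D1-inputs, and from 18.6 through 20.8 to 26.1 CPM in D2-IPs and from 7.39 through 8.24 to 11.5 CPM in D2-inputs. IP and input did not overlap in either line, with log2 fold changes of 0.87 ± 0.08 (adjusted p = 6.8e-13, edgeR) and 1.29 ± 0.08 (adjusted p = 2.5e-18, edgeR). *Ctnnb1* ran from 498 through 552 to 590 CPM in D1-IPs and from 347 through 353 to 387 CPM in D1-inputs, without overlap. Its log2 fold change was 0.61 ± 0.04 in D1 and 0.50 ± 0.04 in D2, the latter under the fold limit. The D1 value lies close to the limit of 1.5-fold and was not called with RLE size factors, with DESeq2 or in control libraries alone.

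*Wnt10a* ran from 1.37 to 3.71 CPM in D1-IPs against 0.406 to 1.10 CPM in D1-inputs (log2 fold change 1.46 ± 0.23, adjusted p = 2.8e-07, edgeR) but was lower in D2-IPs than in D2-inputs (−0.65 ± 0.23, adjusted p = 0.0089, edgeR). With IP and input of the same number as a block, the D2 call of *Wnt10a* (−0.51) and that of *Wnt10b* (from −0.63 to −0.57) were lost, and *Wnt2b* was called in D1 (−0.75). The other ligand genes lower in D2-IPs were *Wnt7b* (−2.34 ± 0.22), *Wnt3* (−1.96 ± 0.22), *Wnt9a* (−1.17 ± 0.36), *Wnt5b* (−1.15 ± 0.27) and *Wnt2b* (−1.02 ± 0.31), and those lower in D1-IPs were *Wnt3* (−1.45 ± 0.23) and *Wnt10b* (−1.29 ± 0.26). *Wnt4* was called higher in D1-IPs (0.88 ± 0.18, adjusted p = 4.2e-05, edgeR). *Wnt7a* was called higher in D2-IPs (1.01 ± 0.08, adjusted p = 1.2e-15, edgeR), where all 15 IPs exceeded all 9 inputs.

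**Figure D4:**
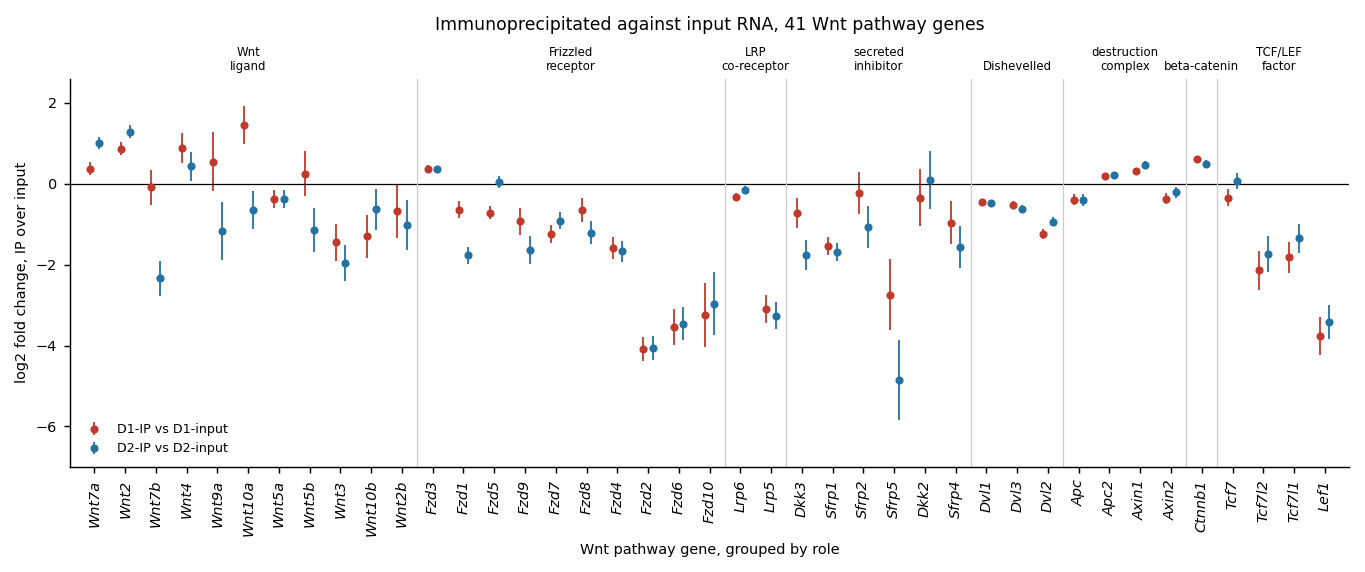
Log2 fold change of IP over input for the 41 tested genes, grouped by role, in the D1 line (9 inputs, 13 IPs) and the D2 line (9 inputs, 15 IPs). Points are edgeR estimates and lines their 95% intervals. *Fzd2*, *Fzd6*, *Fzd10*, *Lrp5*, *Lef1*, *Tcf7l1* and *Tcf7l2* lie below 0 in both lines, and *Wnt7b*, *Wnt9a*, *Wnt10a* and *Sfrp5* lie apart between the lines.

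Most lists of non-neuronal markers were lower in the IPs too. All 6 astrocyte, 6 oligodendrocyte, 3 oligodendrocyte precursor, 6 microglial, 4 endothelial, 4 pericyte, 6 fibroblast and 4 ependymal markers were called lower in both lines. Choroid plexus markers went the other way. Of 3 tested, 1 was called higher in D1-IPs and 2 in D2-IPs, and 0 were called lower in either line. The astrocyte sum ran from 47.6 to 95.8 CPM in D1-IPs, from 37.9 to 64.2 in D2-IPs and from 791 to 1010 in inputs, and the endothelial sum from 3.56 to 6.04, 2.82 to 8.36 and 56.8 to 81.4. No astrocyte or endothelial marker was at 0 in all IPs of a line. Their part in the lower receptor levels of the IPs was not tested. Of the glutamatergic markers, 2 of 7 were higher in D1-IPs than in D1-inputs and all 7 lower in D2-IPs than in D2-inputs. Of 5 cholinergic interneuron markers, 2 were higher and 1 lower in D2-IPs than in D2-inputs. In D1-IPs 0 of these 5 were higher and 4 lower than in D1-inputs. Enrichment in an IP is therefore not enrichment in MSNs alone.

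The IP-to-input ratio itself was compared between the lines, which sets each line against its own tissue. It differed for 15 of 41 genes at an adjusted p under 0.05 (25.5% of all genes), 9 with a higher ratio in D1 (13.7% of all genes) and 6 with a lower one (11.8%). The log2 difference of the ratio was 2.25 ± 0.31 for *Wnt7b*, 2.11 ± 0.32 for *Wnt10a*, 1.72 ± 0.51 for *Wnt9a*, 1.13 ± 0.15 for *Fzd1* and 1.04 ± 0.26 for *Dkk3*, and −0.77 ± 0.11 for *Fzd5*, −0.64 ± 0.11 for *Wnt7a* and −0.42 ± 0.11 for *Wnt2*. With IP and input of the same number as a block, 11 genes were called (22% of all genes). *Axin1* (−0.17), *Fzd8* (0.51), *Fzd9* (0.63) and *Tcf7* (−0.38) lost their call. In control libraries alone 5 genes were called, against 5.09% of all genes, and *Wnt10a*, *Wnt9a* and *Wnt2* were not among them. This ratio shares the D1-IP and D2-IP libraries with the first comparison and is not independent of it. The glutamatergic and cholinergic marker sums given above move with it, and cannot be told apart from the line.

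The inputs of both lines were compared directly. None of 40 genes was called by edgeR (0.0199% of all genes were) or by DESeq2, and 2 had an unadjusted p under 0.05 (5.19% of all genes). These were *Fzd1*, with a log2 fold change of −0.27 in D1-inputs, and *Dvl2*, with 0.10. In *Fzd1* the difference ran against that between the IPs.

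The third set of comparisons asked whether stress changed these genes. At an adjusted p under 0.05 edgeR called none of the members in any of the 6 contrasts of IPs, the 2 differences of contrasts between lines or the 3 contrasts of inputs, and the smallest adjusted p of any member was 0.85. Con libraries are shared between the Sus and Res contrasts, and the calls below are at an unadjusted p under 0.05. At that threshold DESeq2 called between 0 and 4 members per contrast, where it called 1.64% to 5.5% of all genes. At an adjusted p under 0.05, D1-IP Res against Con called 0.00703% of all genes, 1 gene that was lower, and no other stress contrast any.

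In D1-IPs, 3 of 39 genes were lower in Sus than in Con (5.34% of all genes were called, 2.84% lower and 2.5% higher), and none higher. *Axin1*, the scaffold of the destruction complex, had 34.7, 27.7, 30.1 and 33.6 CPM in Con, 30.8, 31.0, 31.3 and 30.6 in Res and 27.3, 31.4, 26.8, 26.1 and 28.9 in Sus. Con and Sus overlapped, and the log2 fold change of Sus over Con was −0.17 ± 0.06 (unadjusted p = 0.011, adjusted p = 0.85, edgeR). It was also lower in Sus than in Res, by −0.14 ± 0.06 (unadjusted p = 0.031, adjusted p = 1.00, edgeR).

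*Wnt7a* had 35.7, 31.5, 24.8 and 27.1 CPM in D1-IP Con, 23.4, 24.4, 26.9 and 28.4 in Res and 27.8, 24.2, 21.9, 23.0 and 22.7 in Sus. The 2 highest libraries were Con, and the log2 fold change of Sus over Con was −0.32 ± 0.12 (unadjusted p = 0.014, adjusted p = 0.85, edgeR). *Wnt2* had 22.4, 14.6, 17.6 and 15.2 CPM in Con, 17.6, 17.2, 16.5 and 17.4 in Res and 16.1, 14.5, 13.3, 14.9 and 16.8 in Sus. The highest library was Con 1, Con 2 and Con 4 lay inside the Sus range, and the difference was −0.21 ± 0.09 (unadjusted p = 0.031, adjusted p = 0.85, edgeR). Without D1 Con 1 none of the 3 genes was called, and without D1 Con 2 there were 7 calls. *Wnt2* also lost its call without D1 Con 3, D1 Sus 2 or D1 Sus 3, and *Axin1* without D1 Con 4. Fitted on the Con and Sus D1-IPs alone, *Axin1* and *Wnt2* were not called.

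Beside these calls, 2 of 5 general MSN markers were lower and 1 of 6 astrocyte markers was higher in D1-IP Sus than in Con. Of the D2-MSN markers, 4 of 5 were lower in D1-IP Sus than in Con, where their sum ran from 2079 to 2629 CPM against 2393 to 3496 CPM, and none was at 0. Summed glutamatergic markers ran from 670 to 1443 CPM in Sus and from 408 to 1114 CPM in Con, with 0 of 7 called. The part of either in the stress values was not tested, except that *Axin1*, *Wnt2* and *Wnt7a* were all called with the glutamatergic sum as a covariate.

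Between Sus and Res D1-IPs, 3 of 39 genes were called (4.23% of all genes), *Dkk3* higher (1.93% of all genes were) and *Wnt5b* and *Axin1* lower (2.3%). *Dkk3* had 54.0, 49.5, 95.1, 65.9 and 67.8 CPM in Sus and 27.6, 53.7, 50.9 and 17.9 in Res, with 4 of 5 Sus libraries above all Res libraries (log2 fold change 0.82 ± 0.32, unadjusted p = 0.016, adjusted p = 1.00, edgeR). The call was lost without D1 Res 1, D1 Res 4 or D1 Sus 3. The glutamatergic sum, which *Dkk3* followed above, ran from 490 to 903 CPM in Res and from 670 to 1443 CPM in Sus, and *Dkk3* was also called with it as a covariate. In this contrast 2 of 5 D2-MSN markers were lower in Sus, with a sum of 2079 to 2629 CPM against 2368 to 2818 CPM in Res. Of the fibroblast and meninges markers 2 of 4 tested were lower, with a sum of 1.80 to 3.75 CPM against 1.95 to 11.2 CPM. The part of both in the 3 calls was not tested. *Wnt5b*, at 0.242 to 0.623 CPM in Sus and 0.452 to 1.39 in Res, had a log2 fold change of −0.90 ± 0.44 (unadjusted p = 0.049, adjusted p = 1.00, edgeR). Its call was lost in most fits that left out 1 library, and that of *Axin1* was lost without any 1 of the 4 Res libraries or without D1 Sus 1, 3 or 4. No gene was called between Res and Con (2.11% of all genes were).

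In D2-IPs *Wnt2* was the only gene called between Sus and Con (3.68% of all genes, 2.07% higher and 1.6% lower), with 26.1, 23.5, 21.6, 22.2 and 20.7 CPM in Con, 21.0, 20.3, 23.5, 20.8 and 19.7 in Res and 19.1, 19.3, 21.0, 20.1 and 18.6 in Sus. A single Sus library reached the Con range, and the log2 fold change was −0.22 ± 0.09 (unadjusted p = 0.019, adjusted p = 1.00, edgeR). Without D2 Con 1 it was no longer called. In this contrast 1 of 6 astrocyte, 1 of 3 oligodendrocyte precursor and 1 of 4 tested fibroblast markers were higher in Sus and 1 of 5 interneuron markers (*Pvalb*) lower, while the glutamatergic sum ran from 46.1 to 323 CPM in Sus and from 103 to 291 CPM in Con with 0 of 7 called. Their part in the value of *Wnt2* was not tested, except that it was also called with the glutamatergic covariate. The Sus against Con values of *Wnt2*, −0.21 in D1-IPs and −0.22 in D2-IPs, were not called as different between the lines. In D2-IPs between Sus and Res, *Fzd9* alone was called (log2 fold change −0.66 ± 0.31, unadjusted p = 0.041, against 1.66% of all genes), and between Res and Con none (3.02% of all genes). *Fzd9* had 0.833, 0.792, 1.15, 0.941 and 0.300 CPM in Sus and 1.60, 0.580, 1.29, 0.926 and 2.04 in Res, with much overlap, and the call was lost without any of 6 libraries (D2 Res 1, 3 or 5, D2 Sus 1, 2 or 5).

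The difference of the contrasts between D1-IPs and D2-IPs was not called for any gene for Sus against Con (1.82% of all genes were, 0.696% higher and 1.12% lower in D1), and for *Wnt5b* alone for Res against Con (1.49 ± 0.65, unadjusted p = 0.029, adjusted p = 1.00, edgeR, against 2.36% of all genes). *Wnt5b* had 0.821, 0.812, 0.443 and 0.433 CPM in D1-IP Con and 1.24, 1.39, 0.452 and 0.596 in D1-IP Res. In D2-IPs it had 0.579, 0.863, 0.393, 0.512 and 0.241 CPM in Con and 0.392, 0.207, 0.0391, 0.206 and 0.467 in Res. The groups overlapped in both lines, at 11 to 30 reads per D1-IP and 1 to 17 per D2-IP of Con and Res, and the call was lost without D1 Con 3, D1 Con 4, D1 Res 1, D1 Res 2, D2 Con 2 or D2 Res 3.

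In inputs, with both lines together and 6 libraries per group, *Tcf7l1* was lower in Sus than in Con (log2 fold change −0.36 ± 0.15, unadjusted p = 0.023, adjusted p = 0.98, edgeR, against 4.51% of all genes). It was also called lower in Res than in Con (−0.30 ± 0.15, unadjusted p = 0.049), where *Dvl1* (0.09) and *Fzd1* (0.20) were called higher (3 in all, against 3.25% of all genes). Between Sus and Res, *Wnt5b* (−0.89), *Fzd10* (−0.60), *Lef1* (0.37) and *Lrp6* (0.08) were called (4 in all, against 5.47% of all genes). In inputs, ependymal markers were lower in Sus (1 of 3 tested) and Res (2 of 3) than in Con. Of the astrocyte markers, 1 of 6 was lower in Sus and 1 of 6 in Res than in Con. Between Sus and Res, 2 of 6 fibroblast markers were lower and 1 of 4 endothelial markers was higher in Sus. Their part was not tested. Leaving out single inputs removed each of these calls except that of *Wnt5b*, and *Tcf7l1* in Sus lost its call without D1 Con 2 or D1 Sus 2. *Tcf7l1* ran from 3.10 to 3.90 CPM in Sus, from 2.79 to 4.93 in Res and from 3.90 to 6.02 in Con.

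The fourth comparison addressed loss of the deacetylase SIRT1 in cells with D1-Cre. *Sirt1* itself did not differ by its whole-gene count. It had 13.1, 16.6, 14.8 and 14.4 CPM in D1-IP Con and 15.2, 16.2, 13.2 and 10.2 CPM in the libraries labelled Sirt1-KO, with a log2 fold change of −0.10 ± 0.13 (adjusted p = 0.77, edgeR). The labels do not say which exon is floxed, so a count over all exons may not show the deletion. CPM in this comparison were normalized over these 8 libraries and differ slightly from those above. No sequencing run or preparation date is given for either group, so such a difference and the genotype cannot be told apart.

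None of 34 genes was called at a fold over 1.5 and an adjusted p under 0.05 in edgeR (0.749% of all genes were). DESeq2 called 2, *Tcf7l2* and *Wnt4* (1.64% of all genes). In edgeR 11 genes had an unadjusted p under 0.05 (17.3% of all genes). Lower in the libraries labelled Sirt1-KO were *Tcf7l2*, *Sfrp2*, *Fzd8* and *Wnt5b*. Higher were *Wnt4*, *Wnt7b*, *Wnt9a*, *Dkk3*, *Fzd7*, *Fzd5* and *Apc*.

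*Tcf7l2*, which encodes a main transcriptional partner of beta-catenin, had 2.09, 2.27, 4.07 and 3.45 CPM in Con and 1.40, 1.33, 1.68 and 0.930 CPM in the libraries labelled Sirt1-KO. The groups did not overlap, and the log2 fold change was −1.14 ± 0.26 (unadjusted p = 0.0011, adjusted p = 0.057, edgeR; adjusted p = 0.0033, DESeq2). *Sfrp2* had 0.979, 1.14, 1.32 and 1.65 CPM in Con and 0.667, 0.518, 0.667 and 0.744 CPM in the other group, again without overlap (log2 fold change −0.97 ± 0.26, unadjusted p = 0.0033, adjusted p = 0.085, edgeR). *Fzd8* had 1.79, 2.05, 1.55 and 2.47 CPM in Con against 0.842, 1.42, 1.11 and 1.07 CPM (log2 fold change −0.81 ± 0.24, unadjusted p = 0.0053, adjusted p = 0.11, edgeR). Besides these 3, *Fzd5* and *Fzd6* did not overlap between these groups of 4. How many of all genes did not overlap was not counted, so this is no trait of the pathway genes.

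*Wnt4* had 5.87, 10.4, 6.91 and 8.32 CPM in Con and 11.1, 16.1, 18.7 and 9.21 CPM in the libraries labelled Sirt1-KO, of which only the last lay inside the Con range (log2 fold change 0.82 ± 0.23, unadjusted p = 0.0037, adjusted p = 0.089, edgeR). *Wnt7b* had 12.0, 31.1, 21.5 and 29.5 CPM against 34.5, 53.2, 60.7 and 24.6 CPM (0.89 ± 0.30, unadjusted p = 0.013, adjusted p = 0.16, edgeR). *Wnt9a* had 2.23, 7.29, 4.65 and 4.01 CPM against 6.84, 10.5, 11.8 and 5.44 CPM (0.94 ± 0.32, unadjusted p = 0.013, adjusted p = 0.15, edgeR). Without the library labelled Sirt1-KO 5, which is the lowest of its group in all 3, these 3 genes and *Tcf7l2* were called, and without D1 Con 2 *Dkk3* was.

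The summed glutamatergic markers ran from 386 to 1056 CPM in Con and from 863 to 1619 CPM in the libraries labelled Sirt1-KO, with 0 of 7 called and none at 0. With their sum as a covariate the log2 fold changes were 0.14 for *Wnt4*, −0.14 for *Wnt7b*, −0.11 for *Wnt9a* and 0.13 for *Dkk3*, and −1.51 for *Tcf7l2*, −1.04 for *Sfrp2* and −0.97 for *Fzd8*, with no member called (0.205% of all genes were). Of the cholinergic markers, 1 of 4 tested was lower, with a sum of 10.6 to 13.7 CPM in Con and 4.29 to 9.16 CPM in the other group. The part of the cholinergic markers was not tested.

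**Figure D5:**
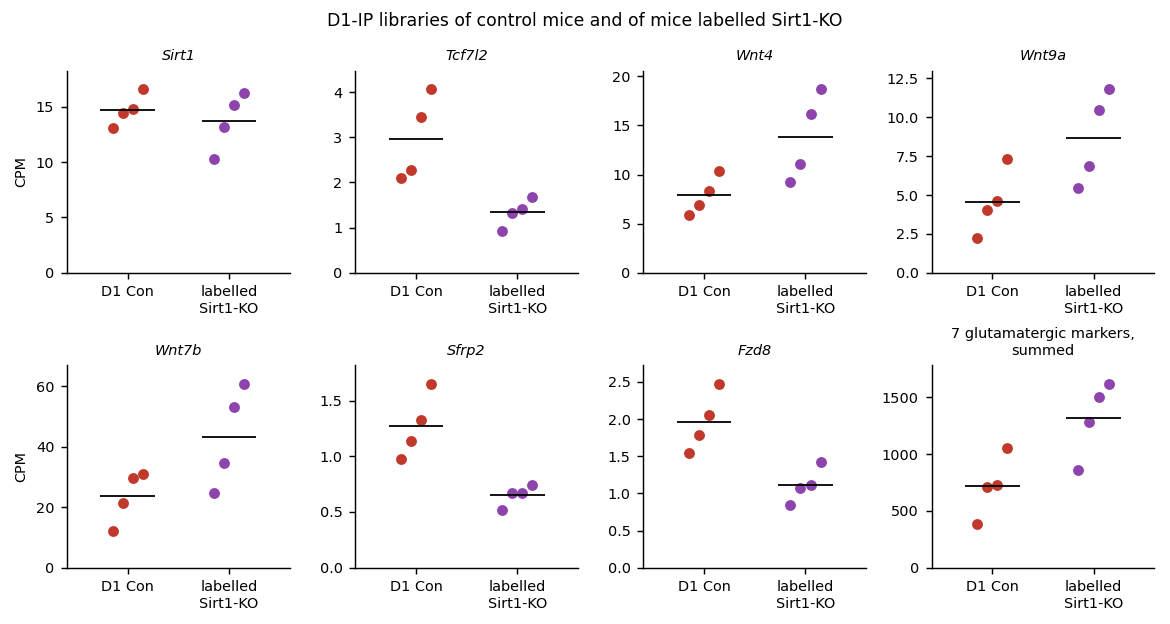
CPM of *Sirt1*, 6 Wnt pathway genes and the sum of 7 glutamatergic markers in 4 D1-IP Con libraries and 4 libraries labelled Sirt1-KO. Each point is 1 library, ordered by value within its group, and the bar is the mean. *Sirt1* overlaps between the groups, *Tcf7l2*, *Sfrp2* and *Fzd8* do not, and *Wnt4*, *Wnt9a* and *Wnt7b* lie higher where the marker sum does.

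Other genes of the pathway, from a list of secretion factors, R-spondins and their receptors, kinases, co-repressors and planar polarity genes, moved as follows. Between D1-IPs and D2-IPs 8 of 51 tested were called (against the same 7.66% of all genes). Higher in D1-IPs were the Wnt-binding inhibitor gene *Frzb* (log2 fold change 2.36 ± 0.16), *Dkkl1* (1.92 ± 0.30), the R-spondin genes *Rspo3* (1.56 ± 0.20) and *Rspo2* (1.27 ± 0.26), and 2 more. Lower were *Rspo1* (−0.98 ± 0.10) and the planar polarity gene *Celsr1* (−0.60 ± 0.09). The D1-to-D2 difference of *Dkkl1* turned to −0.65 with the glutamatergic covariate (adjusted p = 0.14, edgeR).

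Of 13 tested genes known as beta-catenin targets in other tissues, 5 were called between D1-IPs and D2-IPs (7.66% of all genes were). *Ccnd1* (1.65 ± 0.12), *Lgr5* (1.21 ± 0.12) and *Apcdd1* (0.84 ± 0.17) were higher in D1-IPs, and *Cd44* (−1.04 ± 0.22) and *Tbx3* (−0.99 ± 0.26) lower. *Axin2*, *Lef1* and *Tcf7*, which are targets and members alike, did not pass the fold limit. Against inputs, 28 of 54 other pathway genes were called in D1-IPs (43.1% of all genes were) and 26 in D2-IPs (43.6%). Among those lower in both were *Notum* (−3.07 and −2.51), an enzyme that inactivates Wnt ligands, *Draxin* (−2.70 and −2.43) and *Daam2* (−2.42 and −2.03), and among those higher in both was the co-repressor gene *Tle4* (0.94 and 1.27).

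Under stress, the calls of these lists are given at an unadjusted p under 0.05. In D1-IPs *Tnks* (0.30) was called between Sus and Con (1 of 51 other pathway genes, against 5.34% of all genes). Between Res and Con, *Kremen1* (0.22) and *Draxin* (−1.56) were called (2 of 51, against 2.11% of all genes). The target gene *Bmp4* (1.14) was also called there (1 of 13 targets). Between Sus and Res D1-IPs, *Rspo2* (0.91), *Rspo1* (0.48), *Tle2* (0.35) and *Prickle1* (0.22) were higher and *Tle1* (−0.20) lower. These were 5 of 51 other pathway genes, against 4.23% of all genes. In D2-IPs only *Vangl1* was called (1 of 51 other pathway genes in each contrast named here). It was higher in Res than in Con (0.74, against 3.02% of all genes) and lower in Sus than in Res (−0.76, against 1.66%). Its Res against Con value differed between the lines (−1.14, against 2.36% of all genes). In inputs *Gsk3a* (−0.10) was called between Sus and Res (1 of 53 other pathway genes, against 5.47% of all genes). So was 1 of 14 target genes, the member *Lef1*. In the libraries labelled Sirt1-KO, *Apcdd1*, which encodes a membrane inhibitor of the pathway, was the only gene of either list called (1.47 ± 0.28, adjusted p = 0.029, edgeR). None of the 48 other pathway genes and 1 of 10 target genes tested there were called, against 0.749% of all genes. Of the 48, 12 had an unadjusted p under 0.05 (17.3% of all genes had). *Apcdd1* was not called with the glutamatergic covariate (0.88).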

How the data were processed

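RNA-seq of RiboTag IPs and inputs was deposited as 2 tables of raw counts per gene symbol, which the authors made from stranded, poly(A)-selected libraries. Per the submitters' processing notes, cutadapt, FastQC, STAR, HTSeq, DESeq2 and HOMER were used with mm10, and their versions and the strand setting of the counting are not given in the sources used here. From these counts, 46 IP and input libraries had 18384265 to 31009626 reads on genes. The 5 entries that name no gene held 18.0% to 28.3% of reads in these IPs and 35.9% to 40.0% in inputs, and were left out. There were 2 columns that match no sample description, which were not used. For the Sirt1-KO libraries, 5 symbols were listed more than once with identical rows and were taken once, and the 4 D1 Con libraries hold the same counts in both deposited tables. Replicates were compared over 82 pairs, in which the pairs among the 4 D1 Con libraries are counted once for each deposited table. None agreed within sampling noise (chi-square per degree of freedom 3.598 to 104.3).

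Genes were kept by filterByExpr (minimum count 10, minimum total 15), normalized by TMM and tested by edgeR 4.0.16 (quasi-likelihood, R 4.3.3, limma 3.58.1) with Benjamini-Hochberg adjustment over all genes tested. IPs entered 1 fit, IPs with inputs 1 fit, inputs 1 fit and the Sirt1-KO and D1-IP Con libraries 1 fit. Calls were a fold over 1.5 with adjusted p under 0.05 between lines, between IP and input and for Sirt1-KO, adjusted p under 0.05 for the IP-to-input ratio, and unadjusted p under 0.05 for stress. SE and 95% intervals come from edgeR. The fitting was tested on simulated data. Levels between genes are CPM per kb of merged GENCODE vM21 exons. Correlations, permutations and figures used Python 3.11.15, NumPy 2.4.6, SciPy 1.17.1 and matplotlib 3.10.9, and promoters came from RefSeq (GRCm38.p6). Some members share exons with a gene on the opposite strand (for example *Fzd5* with *Gm38058*, *Sfrp2* with *Gm26771*, *Axin2* with *Gm11670*, *Ctnnb1* with *Ulk4*, *Dvl2* with *Acadvl* and *Lef1* with *Gm43352*), so their counts are uncertain.

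Inputs were the remainder of homogenates used for IPs. That an IP and an input of the same number share a homogenate is assumed, since no source states it and their deviations hardly correlated (18 pairs, −0.193 to 0.506, median 0.030, 3 over 0.1). The main fits used no pairs. The replicate block also joined libraries of the same number across lines, across stress groups and in the Sirt1-KO comparison. Deviations of D1-IPs and D2-IPs of the same number correlated from −0.136 to 0.241 (13 pairs, median 0.100, 7 over 0.1). Alternatives were RLE size factors, DESeq2 1.42.0, no filter on low counts, a replicate block, smaller sets of libraries, other call rules and leaving out each library, and, chosen after seeing the data, the glutamatergic marker sum as a covariate. All members may be named, with values in every library for the called ones, up to 8 by log2 fold change in a comparison, and of the other lists those called, up to 4 in each direction. The members and lists were chosen with earlier results of these data known. Of the glutamatergic markers, which enter only as a sum and a count, not all are named, and single values of them are not reported here. Libraries of the same type (IP or input) are separate pools of 2 mice, so p-values within a type measure the spread between pools. An IP and an input can come from the same pool. The fit of IPs with inputs took them as independent, so its p-values ignore that sharing, except with the replicate block.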

Additional observations from a re-analysis of the deposited data

Results flagged for a closer look

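The 5 values given first come from a single library that stood apart from its group of 5 by Dixon's criterion. In 126 groups of 18 genes, 5 stood apart where chance gives about 6.3, so their number is no pattern.

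Among D1-IP Sus libraries, *Wnt7b* reached 55.2 CPM in Sus 3, where the other 4 ran from 19.2 to 28.03, and *Wnt4* reached 16.0 CPM in the same library, where the others ran from 6.47 to 9.11. That library also had the highest summed glutamatergic markers of the D1-IPs (1443 CPM), and the part of those markers in these values was not tested. Among D2-IP Sus libraries, *Sfrp2* reached 1.77 CPM in Sus 1 (others 0.458 to 0.729) and *Sfrp5* 0.133 CPM in the same library (others 0.0372 to 0.0429). That *Sfrp5* value rests on 4 reads, beside 1 read in each other library of the group. *Sfrp5* reached 0.183 CPM in D2-IP Con 4 (others 0 to 0.0508), a value of few reads.

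The IP-to-input ratio differed between the lines for 15 genes by the interaction term (edgeR). The log2 difference of D1 minus D2 was 2.25 for *Wnt7b*, 2.12 for *Sfrp5*, 2.11 for *Wnt10a*, 1.72 for *Wnt9a*, 1.40 for *Wnt5b*, 1.13 for *Fzd1*, 1.04 for *Dkk3*, 0.70 for *Fzd9* and 0.56 for *Fzd8*. It was −0.77 for *Fzd5*, −0.64 for *Wnt7a*, −0.42 for *Wnt2*, −0.41 for *Tcf7*, −0.31 for *Dvl2* and −0.17 for *Axin1*. Adjusted p ran from 2.7e-07 for *Fzd1* to 0.044 for *Axin1*.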

How the results depend on the processing

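Counts of called members are given with their alternatives. The percentages beside them are the share called of all genes in the same setting. Between D1-IPs and D2-IPs, 11 became 7 in control libraries alone (5.23%, *Fzd9*, *Sfrp2*, *Sfrp5* and *Wnt5b* lost) and 20 with no fold limit (40.8%). The glutamatergic covariate turned *Dkk3* to −0.345, *Wnt9a* to −1.3478, *Wnt4* to −0.40 and *Dkkl1* to −0.6524, and the cause was not tested. With no filter on low counts, D1-IP Sus against Con gave 5 (4.81%), D1-IP Res against Con 2 (2.42%), D2-IP Res against Con 1 (3.1%) and D2-IP Sus against Res 2 (2.27%). The difference between lines gave 1 for Sus (2.3%) and 2 for Res (2.64%), and Sirt1-KO 1 (0.915%). DESeq2 gave 1 for D2-IP Res against Con (3.05%) and 2 for Sirt1-KO (1.64%). The replicate block gave 1 for D2-IP Res against Con (5.1%), 0 for D2-IP Sus against Res (2.63%) and 1 for the Sus difference (2.43%). It gave 2 for input Sus against Con (4.64%) and 6 for Sirt1-KO (4.41%). The libraries of a block share only a number (in Sirt1-KO, 3 pairs with correlations −0.008 to 0.077), and the block left the calls between D1-IPs and D2-IPs as they were. The covariate gave 1 for D1-IP Res against Con (2.31%), 1 for D2-IP Res against Con (3.21%), 2 for D2-IP Sus against Res (2.03%) and 2 for the Res difference (2.69%). Fitting only the libraries compared gave 5 for D1-IP Sus against Res (5.32%), 0 for D2-IP Sus against Res (1.21%) and 1 for the Sus difference (1.69%). The ratio gave 5 in control libraries alone (5.09%). An adjusted p gave 0 for every stress contrast with calls. Leaving out 1 library gave 10 to 11 between D1-IPs and D2-IPs, 0 to 7, 0 to 1 and 1 to 3 in D1-IPs (Sus against Con, Res against Con, Sus against Res), 0 to 2, 0 to 2 and 0 to 1 in D2-IPs, 0 to 2 and 0 to 2 for the differences, 23 to 26 and 25 to 28 for IP against input, 12 to 17 for the ratio, 0 to 0 between inputs, 0 to 3, 1 to 3 and 3 to 7 in inputs, and 0 to 4 for Sirt1-KO. For the fits that left out 1 library no share of all genes is given. Genes with under about 1 CPM, such as *Sfrp5* and *Wnt5b*, rest on few reads, and depth limits their calls.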
